A study of Mus musculus with 16 samples.

Results

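A set of 41 mouse genes of double-strand break repair, the damage checkpoint and the Fanconi pathway was followed on 16 Affymetrix Mouse Gene 1.0 ST arrays. A member was taken from the array row annotated with its symbol alone, and where several rows qualified the one with the highest mean was used. By this rule 37 of the 41 were measured, among 19937 genes with such a row, and Xrcc2, Rbbp8, Dclre1c and Rnf8 were not analysed here. The arrays held bone marrow RNA from C57BL/6J mice, either wild type (WT) or lacking Parp-2 (Parp-2-/-), a poly(ADP-ribose) polymerase activated by DNA breaks. Each genotype gave lineage-negative, c-Kit-positive cells of 2 kinds, the Sca1-positive LSK fraction, which holds the stem cells, and the Sca1-negative MP fraction, the myeloid progenitors. Mice were unirradiated or had received 5 Gy of radiation 2.5 h earlier. These 3 factors make 8 groups of 2 pools, each pool from at least 3 mice, so that mice are not separate samples. The labels do not say whether the pools were sorted separately, and the p-values measure the spread between pools only.

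A double-strand break is sensed by the MRE11-RAD50-NBN complex (Rad50, Nbn) and the kinase ATM, while ATR, with TOPBP1 and claspin (Clspn), responds to single-stranded DNA at resected ends and stalled forks. They act through the checkpoint kinases CHK2 (Chek2) and CHK1 (Chek1). Broken ends are either rejoined directly by Ku (Xrcc5, Xrcc6), DNA-PKcs (Prkdc), XRCC4 and ligase IV (Lig4), or resected and copied from the sister chromatid by homologous recombination. Recombination uses BRCA1 with BARD1, PALB2 and BRCA2, and the Fanconi proteins deal with interstrand crosslinks through the FANCD2-FANCI pair. Recombination needs a replicated sister, so its genes are known to be transcribed mostly in S and G2 phase, and quiescent stem cells are known to rely on end joining.

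Since members that move together may share promoter letters, the RefSeq windows of 300 bases, 250 before and 50 after the transcription start (GRCm38.p6), were searched. Windows were found for 31 of the 37 members. The searched letters, on either strand, were the E2F core, which was read as TTCGCGC, its variant form TTGGCGC or the other variant form TTCCCGC, the motif family of the factors that drive S phase genes, the CHR element (TTTGAA) and CCAAT box (CCAAT) of G2 and mitosis genes, and the p53 consensus half-site with no mismatch. An E2F core and a CCAAT box can share letters, because the reverse of CCAAT ends in TTGG. The 250 bases before the start are shown for 4 members, with E2F cores in capitals: Chek2, the member called after irradiation (chr5:110839733-110839982, plus strand), Topbp1, a checkpoint mediator lower in LSK cells on every array (chr9:103305077-103305326, plus strand), Mdc1, which was not called in any comparison (chr17:35841248-35841497, plus strand), and Rad54l, which was lower in LSK cells and whose window held no E2F core (chr4:116123691-116123940, minus strand).
Chek2: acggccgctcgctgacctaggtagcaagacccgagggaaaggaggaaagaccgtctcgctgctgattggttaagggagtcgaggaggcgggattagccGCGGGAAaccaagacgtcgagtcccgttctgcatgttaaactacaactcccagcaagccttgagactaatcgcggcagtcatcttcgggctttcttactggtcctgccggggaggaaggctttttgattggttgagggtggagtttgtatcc
Topbp1: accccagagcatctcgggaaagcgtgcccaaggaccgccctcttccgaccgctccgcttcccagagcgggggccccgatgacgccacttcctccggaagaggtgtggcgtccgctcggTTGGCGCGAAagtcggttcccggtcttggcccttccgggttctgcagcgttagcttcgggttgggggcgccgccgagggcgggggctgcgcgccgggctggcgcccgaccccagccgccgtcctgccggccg
Mdc1: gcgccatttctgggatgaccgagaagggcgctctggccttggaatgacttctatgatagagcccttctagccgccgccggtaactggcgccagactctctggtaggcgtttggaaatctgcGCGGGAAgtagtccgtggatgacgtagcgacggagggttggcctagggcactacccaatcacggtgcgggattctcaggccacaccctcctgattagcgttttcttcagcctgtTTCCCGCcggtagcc
Rad54l: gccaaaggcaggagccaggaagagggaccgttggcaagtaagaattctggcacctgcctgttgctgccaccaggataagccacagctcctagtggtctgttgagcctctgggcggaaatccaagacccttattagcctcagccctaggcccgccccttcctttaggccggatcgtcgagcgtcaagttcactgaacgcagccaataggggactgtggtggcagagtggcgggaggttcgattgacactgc
The Chek2 core starts 152 bases before the start site, and the pair in Topbp1 overlap, starting 132 and 129 bases before it.

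An E2F core was present in the windows of 20 of 31 members (64.5%), against 2218 of 27025 genes in all (8.21%). The share was 17 of 29 (58.6%) for a list of DNA replication and S phase genes and 4 of 24 (16.7%) for a list of mitosis genes. A CHR element was in 1 member, Bard1 (3.23%, against 18.1% of all genes), but in 19 of 24 mitosis genes (79.2%). CCAAT boxes were in 17 members (54.8%, against 37.9%), and a p53 half-site was in 3, Brip1, Fanca and Fancg (9.68%, against 8.37%). Of a list of known p53 targets, 7 of 20 windows held a half-site and 3 (15.0%) an E2F core. The 27025 genes were not matched to the members in base content or expression, so the contrast with them may be too large. Most members therefore carry an E2F core, about as often as the S phase list, and few carry a CHR element. CCAAT boxes were in 18 of 29 S phase (62.1%) and 20 of 24 mitosis windows (83.3%). These matches describe the windows and do not show binding.

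Parp2 served as the check of genotype. Its level on the log2 scale was 7.40 to 7.96 in WT and 5.70 to 6.77 in Parp-2-/- LSK cells, and 7.98 to 8.40 in WT and 6.74 to 7.11 in Parp-2-/- MP cells, so the genotypes did not overlap in either cell type. The averaged difference was -1.43 (exact stratified permutation test, two-sided, p = 0.00154, the smallest that 1296 arrangements allow). The LSK arrays were the noisier: pools of one group correlated at 0.966 to 0.974, against 0.989 to 0.994 in MP cells, and the median difference between pools over the members was 0.31 in LSK and 0.14 in MP cells. The cell labels were borne out by their markers, with 10 of 12 stem cell genes higher in LSK cells, and 10 of 10 erythroid and 10 of 11 granulocyte and monocyte genes lower. Over all rows 39.3% were called between LSK and MP cells on average, and 17.9% were called lower in LSK cells. Of the members, 32 lay above the array median on all 16 arrays. Levels below the median are not shown to be above background, as for Fancc (above it on 5 arrays), Rad51c (10), Palb2 (11), Lig4 (15) and Fanca (15), whose differences are less certain in size.

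The first comparison set LSK against MP cells, averaged over the 4 strata of genotype and irradiation. Repair genes were lower in the LSK cells: 23 of 37 members fell below MP at an adjusted p under 0.05 and 0 lay above, which is 62.2% of the members. The background was large, with 39.3% of all 22961 rows called and 17.9% called lower. Among the 14047 rows above the array median on at least 2 arrays, 28.5% were called lower. The median difference was -0.46 log2 units over the members, 0.12 over all rows and -0.09 over those 14047 brighter rows. The test was limma with Benjamini-Hochberg adjustment over all rows, and differences are given in log2 units, LSK minus MP, ± the standard error, from 8 arrays against 8. Bulk RNA cannot tell fewer expressing cells from less RNA per cell.

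**Figure D1:**
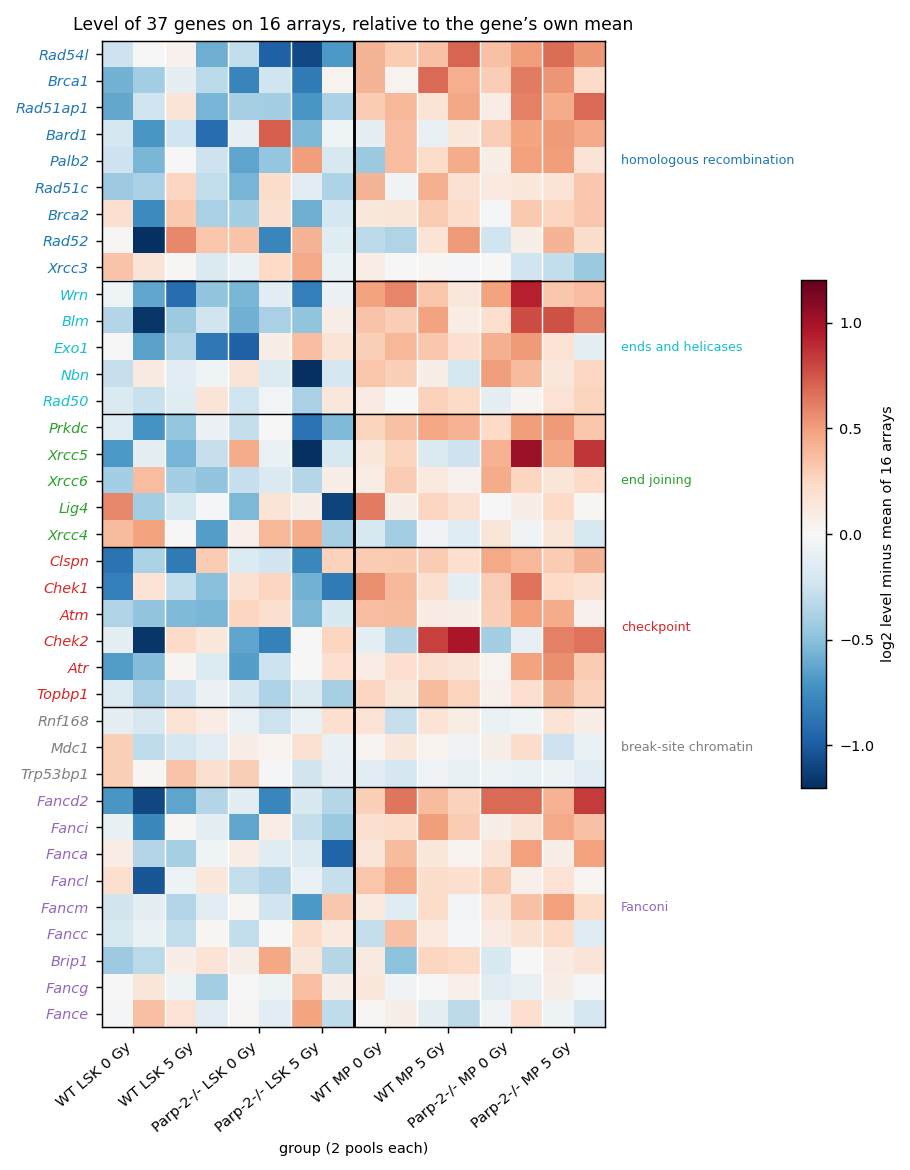
Heat map of the log2 level of the 37 measured members (rows, grouped by role) on 16 arrays (columns, 2 pools a group), each relative to the member's mean over the arrays. Red is above and blue below that mean, and most rows are blue in the 8 LSK arrays to the left of the black line and red in the 8 MP arrays to the right.

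Fancd2, whose ubiquitylated product marks the crosslink repair pathway as active, had the largest difference of the members. Its level ran from 5.01 through a median of 5.61 to 5.96 on the LSK arrays, and from 6.38 through 6.63 to 6.94 on the MP arrays. All 8 LSK arrays lay below all 8 MP arrays, and the difference was -1.05 ± 0.12 (limma adjusted p = 7.5e-05), a 2.07-fold lower level. Such a complete separation was seen for 7 members, Fancd2, Rad54l, Brca1, Blm, Wrn, Prkdc and Topbp1, and for 3.94% of all rows in the same direction.

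Of the 9 measured homologous recombination genes, 6 were lower in LSK cells. Rad54l, a motor protein of the strand exchange step, ran from 6.00 through 6.64 to 7.13 in LSK and from 7.39 through 7.54 to 7.78 in MP cells. Its groups did not overlap, and the difference was -0.95 ± 0.13 (adjusted p = 0.00027 in limma). Brca1, the tumour suppressor that promotes resection, ran from 5.30 through 5.77 to 6.18 in LSK and from 6.19 through 6.56 to 6.82 in MP cells. The highest LSK array was just under the lowest MP array, and the difference was -0.81 ± 0.14 (adjusted p = 0.0012 in limma). Rad51ap1, which also acts in recombination, ran from 5.35 through 5.65 to 6.20 in LSK and from 6.14 through 6.47 to 6.73 in MP cells, with 7 of 8 LSK arrays below the lowest MP array. Its difference was -0.79 ± 0.12. The BRCA1 partner Bard1 (-0.51 ± 0.15), the bridge to BRCA2, Palb2 (-0.46 ± 0.14), and Rad51c (-0.43 ± 0.13) were also called. Their groups overlapped: Bard1 ran from 5.98 to 7.61 in LSK and from 6.78 to 7.40 in MP cells. Palb2 ran from 4.47 to 5.61 in LSK and from 4.66 to 5.61 in MP cells, and Rad51c from 4.34 to 5.16 and from 4.86 to 5.32. Brca2, the tumour suppressor bound by PALB2, missed the threshold at -0.41 ± 0.16 (adjusted p = 0.052 in limma). Rad52, a strand-annealing protein, and Xrcc3, another recombination gene, differed by -0.12 ± 0.19 and 0.22 ± 0.10, and neither was called.

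The end-processing proteins and helicases had 4 of 5 genes lower in LSK cells. Wrn and Blm, RecQ helicases whose loss causes Werner and Bloom syndromes, differed by -0.91 ± 0.14 and -0.89 ± 0.14. Wrn ran from 7.13 through 7.54 to 7.99 in LSK and from 8.19 through 8.47 to 8.98 in MP cells. Blm ran from 6.43 through 7.19 to 7.66 in LSK and from 7.68 through 8.01 to 8.38 in MP cells, where the groups only just part. Exo1, the long-range resection nuclease, was lower by less (-0.56 ± 0.15), with LSK arrays from 5.86 through 6.65 to 7.20 and MP arrays from 6.72 through 7.14 to 7.35. Nbn was called at -0.44 ± 0.13 on the row used, with LSK arrays from 6.51 through 7.56 to 7.86 and MP arrays from 7.49 through 7.97 to 8.20. The second Nbn row, which is dimmer, differed by 0.12 (adjusted p = 0.27 in limma), so the rows disagree. Rad50 missed the threshold at -0.24 ± 0.09 (adjusted p = 0.054).

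In end joining, 3 of 5 genes were lower in LSK cells. Prkdc, the catalytic subunit recruited by Ku, ran from 5.88 through 6.39 to 6.76 in LSK and from 6.997 through 7.15 to 7.27 in MP cells. Its 8 LSK arrays lay apart from the 8 MP arrays, at -0.77 ± 0.11 (limma adjusted p = 0.00035). The Ku subunits Xrcc5 and Xrcc6 differed by -0.69 ± 0.17 and -0.41 ± 0.11, with overlap. Xrcc5 ran from 6.01 through 7.06 to 7.74 in LSK and from 7.05 through 7.64 to 8.34 in MP cells, and Xrcc6 from 6.92 through 7.08 to 7.76 and from 7.44 through 7.58 to 7.83. The ligation genes were not called, at -0.37 ± 0.19 for Lig4 and 0.18 ± 0.14 for Xrcc4.

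Of the checkpoint kinases and mediators, 6 of 6 were lower in LSK cells. Topbp1, the activator of ATR, was the most uniform, from 8.22 through 8.39 to 8.55 in LSK and from 8.68 through 8.88 to 9.02 in MP cells. The difference of -0.50 ± 0.08 left no overlap. The kinase genes Atm (-0.55 ± 0.08), Atr (-0.51 ± 0.10), Chek1 (-0.60 ± 0.13) and Chek2 (-0.53 ± 0.13) and the CHK1 adaptor Clspn (-0.67 ± 0.18) differed by similar amounts. Atm ran from 6.27 through 6.40 to 7.07 in LSK and from 6.87 through 7.15 to 7.32 in MP cells, with 6 LSK arrays below the lowest MP array. Atr ran from 6.73 through 7.19 to 7.60 in LSK and from 7.44 through 7.60 to 7.96 in MP cells, with 7 LSK arrays below. Chek1 ran from 6.90 through 7.34 to 8.003 in LSK and from 7.63 through 8.01 to 8.40 in MP cells. Clspn was spread more widely in LSK (6.68 through 7.26 to 7.87) than in MP cells (7.76 through 7.88 to 8.02). Chek2 overlapped most, from 6.14 through 7.25 to 7.56 in LSK and from 6.90 through 7.56 to 8.29 in MP cells.

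The 3 genes of break-site chromatin did not pass. The end-protection factor Trp53bp1 differed by 0.20 ± 0.08 (adjusted p = 0.054), the histone H2AX-binding scaffold Mdc1 by -0.03 ± 0.09 and the ubiquitin ligase Rnf168 by -0.07 ± 0.08. Their 95% intervals lay within 0.5 log2 units of 0.

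Among 9 Fanconi genes, 4 were lower in LSK cells, Fancd2, its partner Fanci (-0.56 ± 0.12), the ubiquitin ligase Fancl (-0.44 ± 0.14) and the core complex gene Fanca (-0.47 ± 0.13). Fanci ran from 5.10 through 5.68 to 5.96 in LSK and from 5.95 through 6.13 to 6.38 in MP cells, with 7 LSK arrays below the lowest MP array. Fancl ran from 5.61 through 6.46 to 6.84 and from 6.66 through 6.84 to 7.09, and Fanca from 4.56 through 5.38 to 5.62 and from 5.57 through 5.68 to 6.02. Other core complex genes were not called, with Fancc at -0.13 ± 0.11, Fance at 0.11 ± 0.12 and Fancg at 0.00 ± 0.08. The translocase Fancm stood at -0.34 ± 0.13 (adjusted p = 0.058) and the helicase Brip1 at -0.05 ± 0.11. The messages of the substrate pair FANCD2 and FANCI were called lower in LSK cells, while most of the upstream complex was not called. Of that complex, Fanca and Fancl were called at sizes near that of Fanci. Whether the called genes differ from those not called was not tested.

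**Figure D2:**
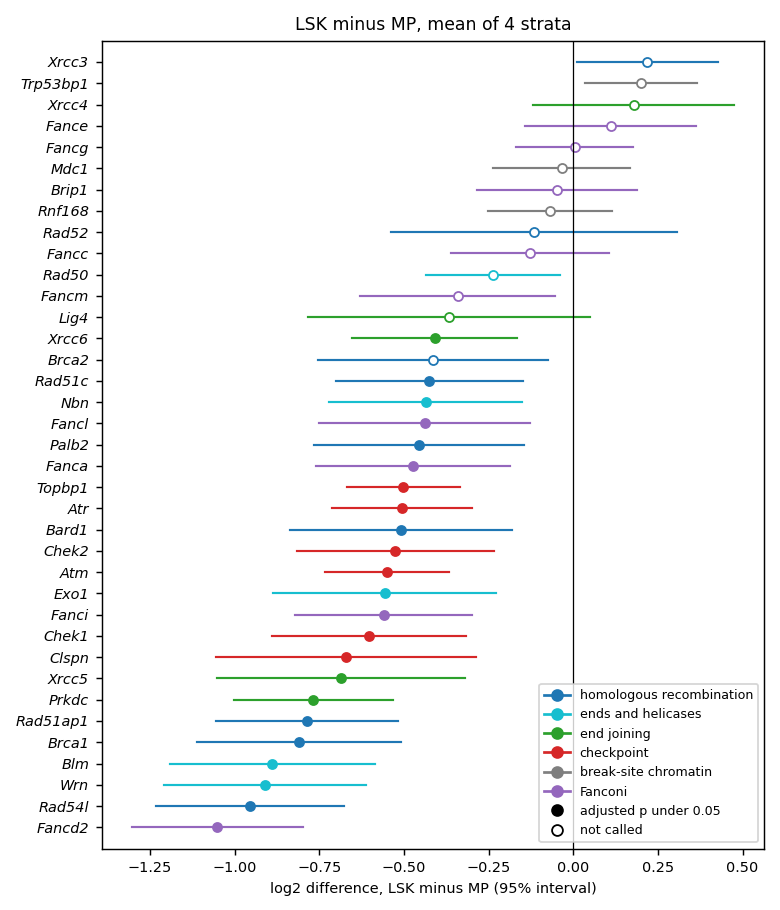
Averaged log2 difference, LSK minus MP, of the 37 members (x axis) with its 95% interval, coloured by role. Filled points mark an adjusted p under 0.05, and all 23 filled points lie below 0, down to -1.05 for Fancd2.

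The S phase list moved alongside, with 30 of 36 genes lower and 0 higher in LSK cells (median -0.54), among them Gins1 (-1.46 ± 0.14) and Fen1 (-1.23 ± 0.16). The mean level of that list was 7.17 to 7.53 on the LSK and 7.86 to 8.06 on the MP arrays, and the mean of the members was 6.45 to 6.70 and 6.97 to 7.14. Of 29 mitosis genes, 26 were lower (median -0.64). Of 61 other break repair genes, 34 were lower and 1 higher (median -0.39), with the resolvase Gen1 (-1.62 ± 0.24), the phosphatase Cdc25c (-1.21 ± 0.12), Rmi1 (-1.19 ± 0.17) and the polymerase Polq (-1.01 ± 0.09) the largest. The part of cell cycle activity in the difference was not tested. An E2F core was in 11 of 18 windows of members called lower (61.1%) and in 9 of 13 of the others (69.2%). A CCAAT box was in 11 (61.1%) and 6 (46.2%) of these windows, a CHR element in 1 and 0, and a p53 half-site in 1 (5.56%) and 2 (15.4%).

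The LSK arrays also had a narrower spread of values (standard deviation over tested rows 1.82 to 1.95, against 2.00 to 2.09), and the calls depended in part on scaling. After further quantile normalization 14 members were lower and 2 higher, with a median of -0.35 over the members and 0.04 over all rows, and 10.8% of rows called lower and 8.5% higher. All 14 were among the 23. The 9 that lost their call were Xrcc5, Clspn, Chek1, Exo1, Chek2, Bard1, Fancl, Nbn and Xrcc6, and the 2 higher were Trp53bp1 (0.34) and Xrcc3 (0.32). The 7 members whose arrays were fully separate were all kept.

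Within single strata, 2 pools against 2, fewer members passed. In unirradiated WT cells 4 were lower in LSK (background 5.23%, 3.93% lower). Fancd2 stood at 5.41 and 5.01 in LSK and at 6.39 and 6.75 in MP cells, a difference of -1.36 ± 0.23 (adjusted p = 0.0080 in limma). Blm stood at 7.24 and 6.43 against 7.94 and 7.89 (-1.08 ± 0.28), Atm at 6.46 and 6.34 against 7.19 and 7.20 (-0.80 ± 0.17), and Atr at 6.73 and 6.88 against 7.49 and 7.60 (-0.74 ± 0.19). In each case both LSK pools lay below both MP pools. In unirradiated Parp-2-/- cells 2 were lower (background 3.34%, 2.52% lower), Fancd2 (5.96 and 5.32 against 6.78 and 6.79, -1.14 ± 0.23) and Rad54l (6.79 and 6.11 against 7.43 and 7.59, -1.06 ± 0.26).

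In irradiated WT cells 0 of 37 members were called in limma (background 2.45%), with 12 at an unadjusted p under 0.05 (22.9% of rows). In irradiated Parp-2-/- cells 5 were lower (background 4.07%, 3.19% lower). Rad54l stood at 6.00 and 6.39 against 7.75 and 7.61 (-1.48 ± 0.26), Xrcc5 at 6.01 and 7.11 against 7.76 and 8.15 (-1.40 ± 0.34), and Prkdc at 5.88 and 6.23 against 7.27 and 7.09 (-1.12 ± 0.22). Rad51ap1 stood at 5.35 and 5.66 against 6.49 and 6.73 (-1.10 ± 0.25) and Topbp1 at 8.44 and 8.22 against 9.02 and 8.90 (-0.63 ± 0.15). The LSK pools of Xrcc5 were more than 1 log2 unit apart. None of these 11 single-stratum calls held in all 16 fits that left out 1 array, while 19 of the 23 averaged calls did. The others were Nbn, Rad51c, Palb2 and Fancl, kept in 15, 14, 9 and 7 fits.

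The second comparison asked how the repair genes responded 2.5 h after 5 Gy. Chek2, the kinase that ATM activates, was the one member that passed, and it rose. The WT LSK pools stood at 7.20 and 6.14 without and at 7.53 and 7.43 after irradiation, and the Parp-2-/- LSK pools at 6.67 and 6.49 and at 7.30 and 7.56. The WT MP pools stood at 7.20 and 6.95 and at 8.13 and 8.29, and the Parp-2-/- MP pools at 6.90 and 7.20 and at 7.91 and 7.95. In all 4 strata both irradiated pools lay above both unirradiated pools, which held for 1 member and for 2.09% of all rows.

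The Chek2 rise was 0.81 ± 0.27 in WT LSK, 0.85 ± 0.27 in Parp-2-/- LSK, 1.13 ± 0.27 in WT MP and 0.88 ± 0.27 in Parp-2-/- MP cells. Averaged over the strata it was 0.92 ± 0.13, or 1.89-fold (limma adjusted p = 0.0012, exact stratified permutation p = 0.00154, the smallest possible). That made 1 of 37 members called, against 5.8% of rows (3.31% higher). Single responses fell short of the threshold: 0 of 37 members passed in WT LSK (background 1.8%), Parp-2-/- LSK (1.47%), WT MP (0.671%) and Parp-2-/- MP cells (0.588%) in limma. Unadjusted p under 0.05 was reached by 5, 9, 1 and 1 members, against 14.7%, 11.8%, 6.24% and 5.75% of rows. Fitted on the MP arrays alone, with a standard error of 0.15, Chek2 passed in WT MP (adjusted p = 0.0069) and Parp-2-/- MP cells (adjusted p = 0.024 in limma).

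**Figure D3:**
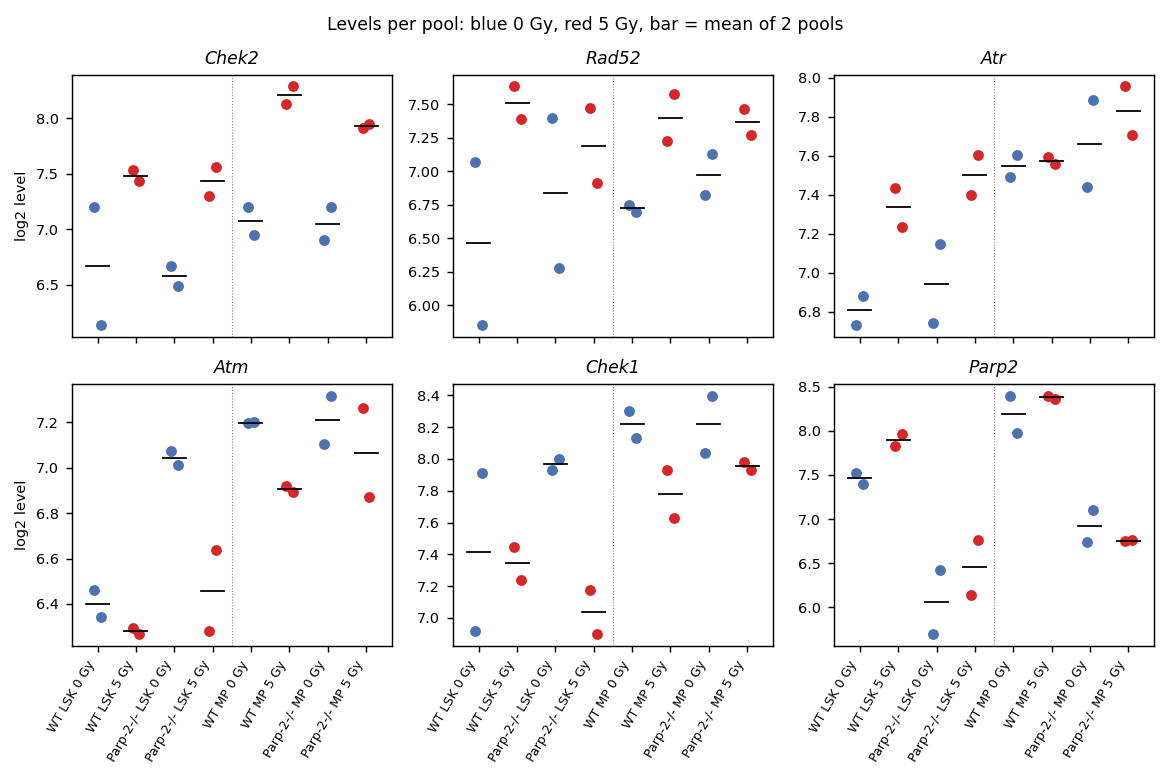
Log2 level (y axis) of Chek2, Rad52, Atr, Atm, Chek1 and, as the genotype check, Parp2 in each pool (points) of the 8 groups (x axis), with the mean of 2 pools as a bar. For Chek2 the red irradiated points lie above the blue unirradiated points in each of the 4 pairs of groups, while the points of the other members overlap in at least 1 pair.

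The other checkpoint kinases were not called, and their values differed in sign. Atr, the kinase of stalled forks, had an averaged difference of 0.32 ± 0.10 (adjusted p = 0.076), with 0.53 and 0.56 in WT and Parp-2-/- LSK cells and 0.03 and 0.17 in MP cells. Its LSK pools stood at 6.73 and 6.88 without and at 7.44 and 7.24 after irradiation in WT, and at 6.74 and 7.15 and at 7.40 and 7.60 in Parp-2-/-, so that these did not overlap. Atm had -0.28 ± 0.08 (adjusted p = 0.074), most of it in Parp-2-/- LSK cells, where the pools stood at 7.07 and 7.01 without and at 6.28 and 6.64 after irradiation. Chek1, which ATR activates, had -0.43 ± 0.13 (adjusted p = 0.090), with pools at 7.93 and 8.003 and at 7.18 and 6.90 in Parp-2-/- LSK cells. Among the mediators, Topbp1 stood at 0.11 ± 0.08 and Clspn at 0.05 ± 0.18.

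No homologous recombination gene passed. Rad52 came closest at 0.62 ± 0.19 (adjusted p = 0.095), with 1.05, 0.35, 0.68 and 0.39 in WT LSK, Parp-2-/- LSK, WT MP and Parp-2-/- MP cells. Its irradiated pools lay above the unirradiated pools in 3 strata and overlapped in Parp-2-/- LSK cells, where they stood at 7.40 and 6.28 without and at 7.47 and 6.91 after irradiation. Palb2 stood at 0.35 ± 0.14 (adjusted p = 0.22), and the other recombination genes lay between -0.18 (Bard1) and 0.16 (Brca1). End joining genes had small values of one sign, from -0.35 ± 0.17 for Xrcc5 to -0.06 ± 0.11 for Prkdc, and 0 of 5 passed. Of the end-processing genes, Nbn stood at -0.33 ± 0.13 (adjusted p = 0.20), Wrn at -0.28 ± 0.14, Blm at 0.22 ± 0.14 and Rad50 at 0.17 ± 0.09.

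In break-site chromatin the largest value was that of Rnf168, at 0.22 ± 0.08 (adjusted p = 0.20). Its pools without and after irradiation stood at 9.03 and 8.96 and at 9.31 and 9.23 in WT LSK, at 9.06 and 8.89 and at 9.06 and 9.35 in Parp-2-/- LSK, at 9.32 and 8.87 and at 9.30 and 9.24 in WT MP, and at 9.07 and 9.11 and at 9.31 and 9.22 in Parp-2-/- MP cells. The pools were apart in WT LSK and Parp-2-/- MP cells and overlapped in the other strata. The 9 Fanconi genes ran from -0.21 ± 0.13 (Fanca) to 0.19 ± 0.11 (Brip1). For 25 of 37 members the 95% interval of the averaged response lay within 0.5 log2 units of 0, and for 35 it lay within 1, the exceptions being Chek2 and Rad52.

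**Figure D4:**
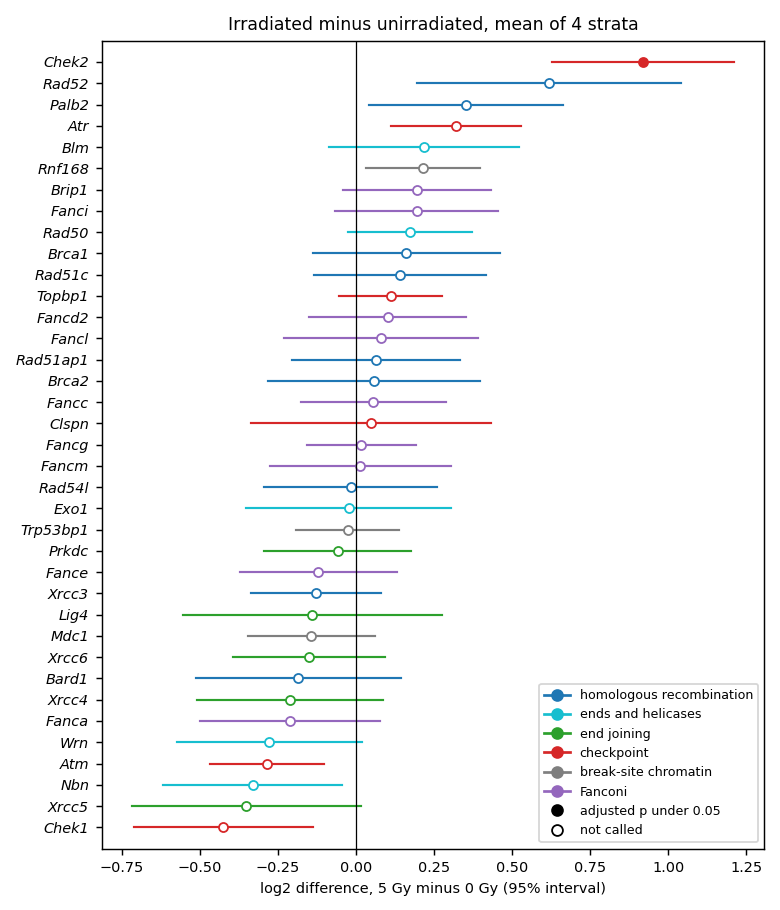
Averaged log2 difference, irradiated minus unirradiated, of the 37 members (x axis) with its 95% interval, coloured by role. Chek2, at 0.92, is the single filled point (adjusted p under 0.05), and the others lie between -0.43 (Chek1) and 0.62 (Rad52).

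The same arrays showed large responses elsewhere. Of 28 p53 targets, 20 rose on average (median 1.79), including the death receptors Fas (3.49 ± 0.18) and Tnfrsf10b (3.03 ± 0.13). In single strata 16, 16, 17 and 18 rose in WT LSK, Parp-2-/- LSK, WT MP and Parp-2-/- MP cells. Of 29 mitosis genes, 26 fell (median -0.72), including Plk1 (-1.85 ± 0.12) and Aspm (-1.79 ± 0.20). S phase genes resembled the members, with a median of -0.02 against 0.02, and 1 of 36, Ccne1, fell (-0.60 ± 0.14). Of 61 other break repair genes 1 rose, Rad51d (0.59 ± 0.12), and 2 fell, Cdc25c (-1.30 ± 0.12), which drives entry into mitosis, and the histone gene H2ax (-0.41 ± 0.09).

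**Figure D5:**
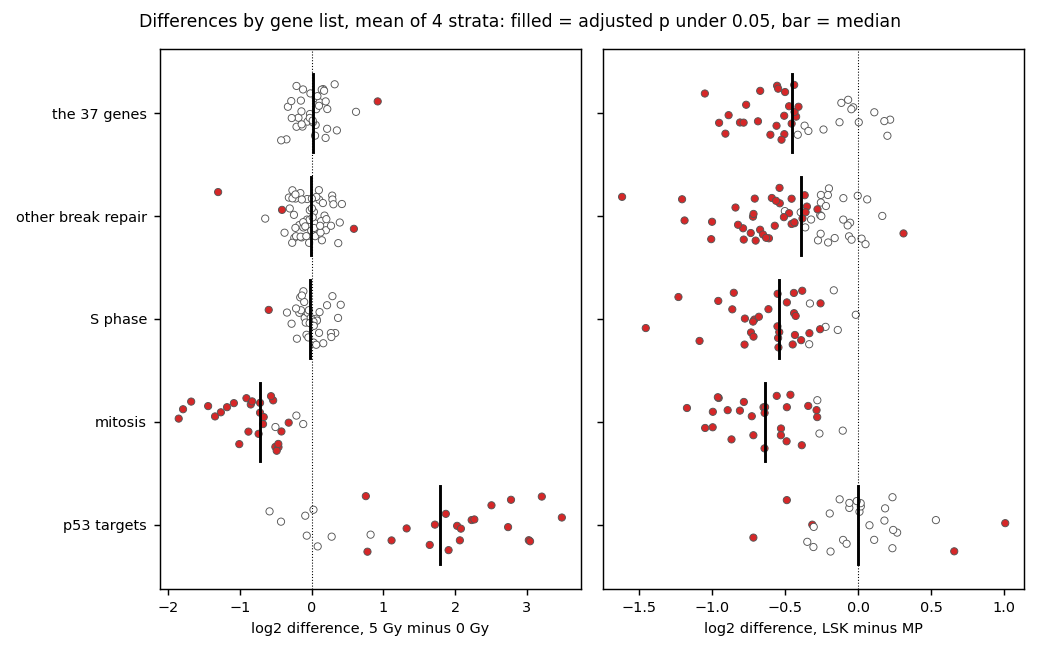
Averaged log2 difference (x axes) after irradiation (left) and between LSK and MP cells (right) for the genes of 5 lists, with filled points at an adjusted p under 0.05 and the list median as a bar. After irradiation the 37 members centre on 0.02 while p53 targets centre on 1.79 and mitosis genes on -0.72. Between cell types the members (-0.46) lie with the other break repair genes as well as with the S phase (-0.54) and mitosis genes (-0.64).

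Single arrays moved the count of averaged responses. It was 3 without pool 2 of the irradiated Parp-2-/- LSK group (Atm and Nbn added) and 3 without pool 1 of the unirradiated WT LSK group (Chek1 and Rad52 added). It was 2 without pool 1 (Rad52) or pool 2 (Atr) of the unirradiated Parp-2-/- LSK group, pool 1 of the irradiated Parp-2-/- MP group (Atm) or pool 2 of the unirradiated Parp-2-/- MP group (Atr). Chek2 passed in each of these 16 fits, between 0.79 and 1.05.

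The third comparison, of Parp-2-/- with WT, gave 0 of 37 members in any stratum or on average in limma. The background was as low: 0% of rows in unirradiated LSK, 0.0174% in irradiated LSK, 0.00436% in unirradiated MP, 0.00871% in irradiated MP and 0.00871% on average, where Parp2 is one of 2 rows. Unadjusted p under 0.05 was reached by 3, 5, 0 and 1 members in these strata and by 4 on average, against 9.31%, 9.55%, 1.08%, 1.79% and 5.34% of rows. The 4 on average were higher in Parp-2-/- cells. Bard1 stood at 0.44 ± 0.15, Xrcc5 at 0.42 ± 0.17, Fancd2 at 0.29 ± 0.12 and Atm at 0.25 ± 0.08, with adjusted p from 0.80 to 0.86. At the other end lay Lig4 (-0.27 ± 0.19) and Rad54l (-0.25 ± 0.13). Parp2 itself stood at -1.40 and -1.44 in unirradiated and irradiated LSK cells and at -1.26 and -1.62 in unirradiated and irradiated MP cells. It was not called in any of these single strata (limma adjusted p of 0.10 or more). A count of 0 within a stratum thus does not show that genotype left the members unchanged.

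All 37 averaged 95% intervals lay within 1 log2 unit of 0 and 30 within 0.5, so a 2-fold genotype difference lies outside the interval of each member averaged in this way. The interval was wider within a stratum, where 28, 30, 34 and 34 members lay within 1. Atm in unirradiated LSK cells had the smallest adjusted p, 0.25 (limma), with pools at 6.46 and 6.34 in WT and at 7.07 and 7.01 in Parp-2-/- (0.64 ± 0.17), which did not overlap. In irradiated LSK cells the largest value was that of Exo1, 0.88 ± 0.30 (adjusted p = 0.39), with pools at 6.47 and 5.98 and at 7.20 and 6.996. Chek2 stood at -0.11 ± 0.13 on average.

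Whether the radiation response differed between genotypes or cell types was tested by interaction. In limma 0 of 37 members passed in any of 4 tests: genotype in LSK (background 0.00871%), genotype in MP (0%), cell type in WT (0%) and cell type in Parp-2-/- (0%), with 5, 0, 1 and 1 members at an unadjusted p under 0.05, against 9.52%, 0.867%, 5.54% and 5.36% of rows. For Chek2 the Parp-2-/- minus WT difference of the response was 0.04 (95% interval -0.78 to 0.86) in LSK and -0.25 (-1.07 to 0.57) in MP cells. The LSK minus MP difference was -0.32 (-1.14 to 0.50) in WT and -0.03 (-0.85 to 0.80) in Parp-2-/- cells. These intervals are too wide to show that the responses were alike. Brip1 had the lowest p among members in the LSK genotype test, at -0.87 (-1.54 to -0.21; adjusted p = 0.40).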

How the data were processed

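RNA of 16 pools was hybridised to Affymetrix Mouse Gene 1.0 ST arrays. The deposited values are on a log2 scale, read from their range because no source used here states the base. RMA, limma, affy 2.10 and R 2.15 are named in the submitters' processing notes, without roles. Neither the genome build nor the set of arrays normalized together is stated there. Values were used as deposited.

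Of 34760 rows, 22961 carried at least 1 symbol and were tested. Group means of 8 groups were fitted over all 16 arrays in limma 3.58.1 (R 4.3.3, eBayes), giving 19 comparisons, each two-sided with Benjamini-Hochberg adjustment over the tested rows, and called at an adjusted p under 0.05. Each row had 1 estimate of the spread for all groups, although LSK pools differed more than MP pools. Errors and intervals within MP cells may thus be too wide and those within LSK cells too narrow. Averaged comparisons are means over 4 strata. Parp2 and the members called in an averaged comparison also had an exact permutation test within strata, without adjustment. For the members it was run after the call and on the same arrays, so it is not separate support. On data simulated for the WT LSK response with 22961 rows, the fit recovered 52.2%, 97.0% and 98.5% of changes of 1, 2 and 3 log2 units. The simulation gave each row the same spread in all groups, so these shares may be too high for the noisier LSK cells. The adjusted threshold also depends on how many rows change. The shares therefore do not carry over to the genotype and interaction comparisons, where few rows were called. There Parp2 was not called at -1.62 in irradiated MP cells. The number of arrays limits the precision.

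The members and gene lists were chosen with earlier results of these data known. Values per array are given for members called in any comparison and for the member with the largest averaged response in a role without one. Of other lists, up to 4 called genes with the largest changes were named, and not all are printed. Where groups do not overlap, this is a description. Marker lists of 9 blood and stromal cell types were used to check the labels. Alternatives were other sets of arrays, quantile normalization, eBayes with trend, the pool number as a block, other row sets, a mean over a gene's rows, array weights and leaving out each array. Promoter windows are from RefSeq (GRCm38.p6); the first window of a gene was used.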

Additional observations from a re-analysis of the deposited data

How the results depend on the processing

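Most counts held. For the averaged LSK and MP difference, limma called 22 to 26 members, all lower in LSK cells, except under quantile normalization, which gave 16 (14 lower, 2 higher). Without 1 array it called 20 to 25, with 1 of them higher in 4 fits: Xrcc3 without pool 2 of irradiated Parp-2-/- LSK, and Trp53bp1 without pool 2 of any other LSK group. Over all rows quantile normalization turned the split from 4920 higher and 4102 lower to 1951 higher and 2478 lower. The averaged Chek2 response stayed called in 23 alternatives, between 0.79 and 1.05 (adjusted p from 3.0e-05 to 0.0056), and 1 to 3 members were called without 1 array. The WT MP and Parp-2-/- MP responses each called 1 member, Chek2, in place of 0 when fitted on the arrays of the cell type, on those of the groups or with array weights, and 0 to 1 without 1 array. Single LSK responses also moved without 1 array. Without pool 1 of unirradiated WT LSK, the WT LSK response was 1.34 for Chek2 and 1.06 for Fancl. Without pool 2 of irradiated Parp-2-/- LSK, the Parp-2-/- LSK response was -1.19 for Nbn and -1.47 for Xrcc5. Without either unirradiated WT LSK pool, the Parp-2-/- LSK response stayed at -0.93 for Chek1 and 0.85 for Chek2. Those WT pools are not part of that comparison, and only the shared estimate of the spread changed, to a standard error of 0.17 for Chek2.

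Counts of members lower in LSK within a stratum depended on the setting. For unirradiated WT cells the 4 became 0 on the groups' arrays alone and 2 after quantile normalization, with array weights or over all rows with or without a symbol. For unirradiated Parp-2-/- cells the 2 became 0, 1, 5 and 0 in the same order of settings, and 1 with trend and robust eBayes. For irradiated Parp-2-/- cells the 5 became 0 on the groups' arrays alone and 2 after quantile normalization or over all rows. Without 1 array these ranged over 0 to 8, 0 to 4 and 0 to 10, and irradiated WT cells over 0 to 1. In unirradiated WT cells the count was 8 without LSK pool 1, 1 without LSK pool 2, 1 and 0 without MP pools 1 and 2, and 2 without any of the 4 irradiated MP arrays. In irradiated Parp-2-/- cells it was 1 and 10 without LSK pools 1 and 2, 0 without either MP pool and 3 without any WT MP array. In unirradiated Parp-2-/- cells it was 0 without either MP pool, 4 without an irradiated Parp-2-/- or unirradiated WT LSK array, and 1 without LSK pool 2, a WT MP array or an irradiated Parp-2-/- MP array. The cause was not tested. Genotype and interaction counts were 0 throughout. In a fit that leaves 1 pool in a group, that pool is assumed to vary like the others.

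The pool numbers showed no clear pairing of the samples: of 28 correlations between groups of pool 1 deviations, from -0.17 to 0.23, 2 were above 0.1. These correlations cannot exclude that pools of the same number shared mice or a sort, which the labels do not state. A replicate block takes out only an offset of the pool number common to all groups. With the pool number as a replicate block the unirradiated Parp-2-/- count was 1 and the unirradiated WT count 3, and no other count of members changed. With 2 pools a group, a change of 1 log2 unit is often missed in a single stratum, so a count of 0 there does not show that the members held steady.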

Other observations

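Bard1 had 3 rows. The row with the highest mean, used above, differed by -0.51 between LSK and MP cells. The others differed by -0.57 (adjusted p = 0.0028 in limma) and -0.85 (adjusted p = 0.11), all in the same direction. The row at -0.85 was uneven between pools, at 4.45 and 6.44 in unirradiated WT LSK and 4.78 and 7.34 in irradiated Parp-2-/- LSK cells.

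Some markers moved with irradiation as well as with cell type. Averaged over the strata, 5 of 10 erythroid genes fell and 0 rose (median -0.60), while 1 of 11 granulocyte and monocyte genes rose and 1 fell. Of 12 stem cell genes 2 fell. Of the B cell (6 genes), T and NK cell (8), macrophage (7), megakaryocyte (5), neutrophil (7) and stromal or endothelial lists (8) 0 genes were called in limma. Over all rows 5.8% were called in this averaged response. Between LSK and MP cells these 6 lists had 3, 3, 1, 1, 0 and 3 genes called higher in LSK cells and 0, 1, 2, 1, 1 and 0 lower. Over all 22961 rows 4920 were called higher and 4102 lower. In the same order, 3, 5, 2, 0, 3 and 4 genes of these lists lay above the array median on no array. Such levels are not shown to be above background. The mean erythroid level was 5.35 to 5.73 on the LSK and 6.67 to 8.50 on the MP arrays. Its part in the members' responses was not tested. In 2 LSK groups pool 2 correlated more closely with an MP array than with the other pool of its group: irradiated WT (0.977 against 0.971) and irradiated Parp-2-/- (0.970 against 0.966). Without the first, 24 members were called lower and 1, Trp53bp1, higher in LSK than in MP cells, and without the second 24 lower and 1, Xrcc3, higher.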
